A study of Mus musculus with 6 samples.

Results

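The collagens are the genes of the collagen alpha chains, taken here as every gene in the expression table whose symbol has the form Col, number, a, number. The table held 40 of them among 24602 genes. By structural type they were 10 fibrillar, 6 basement membrane, 2 network-forming, 7 fibril-associated (FACIT) and 7 beaded filament chains, 1 anchoring fibril chain, 4 transmembrane chains, 2 multiplexins and 1 unclassified chain. Poly(A)-selected left-ventricular RNA of wild-type mice was measured 5 weeks after surgery, either transverse aortic coarctation (TAC), a narrowing of the aorta that loads the left ventricle with pressure, or a sham operation. There were 3 libraries per group, sham replicates 1 to 3 and TAC replicates 1 to 3. The labels give no age or sex and do not state that each library came from a separate mouse, so p-values measure the spread between these libraries, which may be technical.

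Collagen chains wind around each other into a rod-like helix, and the type of chain decides what the rod builds. Fibrillar collagens, mainly types I and III in the heart, form the tensile fibres between muscle cells, with type V starting the fibril. FACIT collagens coat fibril surfaces, type IV makes the sheet of the basement membrane around myocytes and capillaries, type VI makes beaded filaments near cells and type VIII makes networks in vessel walls. Cardiac fibroblasts are the main source of fibrillar collagen, endothelial and mural cells contribute much of type IV, and pressure overload is a classical setting for the build-up of fibrillar collagen.

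Library totals ranged from 64023153 to 69992502 estimated counts. Levels are given as CPM, estimated counts scaled to library size with TMM factors, and as FPKM, which also divides by length, where genes are compared with each other. Genes were tested where their mean FPKM reached 1, and a gene was called at a Benjamini-Hochberg adjusted p under 0.05 over all 8795 tested genes. A second fit used a lower filter, a mean FPKM of 0.1, and held 15003 genes. In the tested collagens 2 libraries stood apart from the others of their group. TAC replicate 3 was the highest of all 6 libraries for 10 of the 16 tested collagens, against 28.1% of all tested genes, and sham replicate 3 was the lowest sham library for 15 of 16, against 30.6% of all tested genes. Of 6 cardiomyocyte markers, all at 189 CPM or more in every library, Myh6, Myl2, Tnni3 and Actn2 were lowest in TAC replicate 3, Ryr2 was highest there (453 CPM, 189 to 285 elsewhere), and Tnnt2 (3920 CPM) lay above the sham libraries and below the other TAC libraries. The atrial light chain gene Myl7 measured 6.99, 57.6 and 41.7 CPM in sham and 42.0, 1.82 and 8.09 CPM in TAC. Of the other atrial markers, Myl4 and Sln were also highest in sham replicates 2 and 3 and TAC replicate 1. Nppa and Bmp10 did not share that order, and its cause was not tested.

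In the comparison of TAC with sham, no abundant collagen was called. The network chain Col8a1, weakly expressed, was called higher in TAC in the fit with the lower filter. The FACIT chain Col12a1 was called there as well, but it entered that fit only through its TAC values, since its sham FPKM lay under the filter. The fibrillar chains Col1a1, Col1a2, Col3a1 and Col5a2 were highest in TAC replicate 3, while the other pair of TAC libraries lay in or near the sham range, and their positive fold changes did not pass. Type IV, type VI and the multiplexins differed by less than the spread between libraries.

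Of the 40 collagens, 16 passed the filter and 24 lay below it. In edgeR's quasi-likelihood test 0 of the 16 were called, beside 6.99% of all tested genes (4.71% higher in TAC and 2.29% lower). At an unadjusted p under 0.05 there were 2, Col1a1 and Col5a2, against 28.1% of all tested genes. DESeq2 called 1 (Col5a2, adjusted p = 0.0235), in a fit that called 18.7% of all genes, and limma on log2(FPKM + 1) called 0. The 16 fold changes had a median of 0.18 on the log2 scale, beside -0.01 for all tested genes, with 10 above 0 and 6 below. Without TAC replicate 3 the median was -0.08, with 6 above 0 and 10 below, and without sham replicate 3 it was -0.02, with 8 on each side. Once each library's trend over GC content and length was removed, 15 of the 16 were above 0, with a median of 0.36 and still 0 calls. With the lower filter 30 collagens entered and 2 were called, both higher in TAC, beside 4.64% of all genes in that fit (2.76% higher in TAC and 1.88% lower). Of these, Col12a1 passed the filter only through its TAC libraries, so its call is no independent addition to the count.

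**Figure D1:**
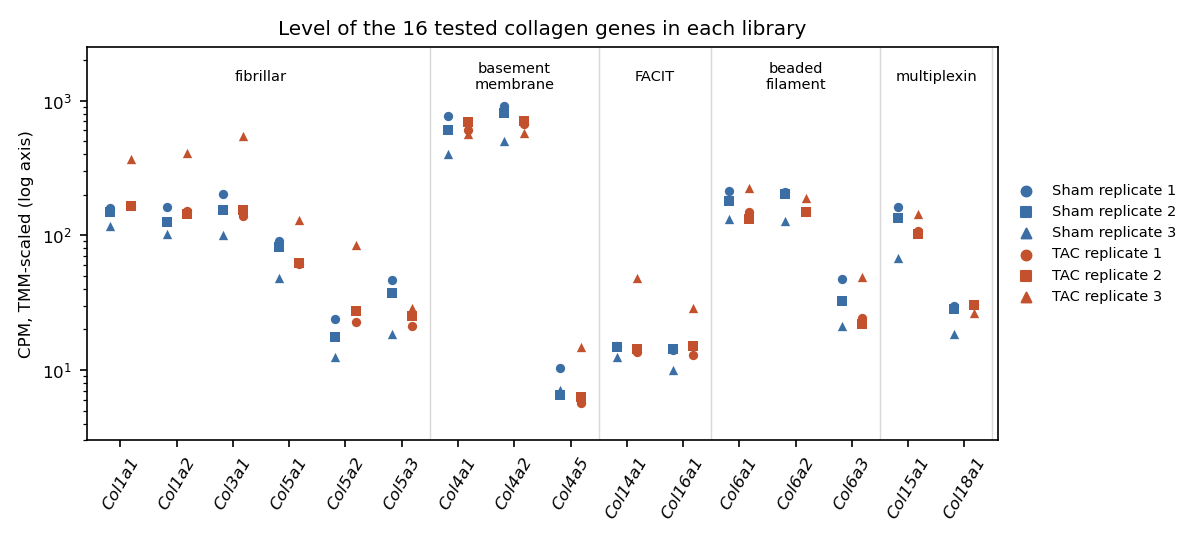
CPM (TMM-scaled, log axis) of the 16 tested collagens in each of the 6 libraries, grouped by structural type; each point is 1 library. The red triangle, TAC replicate 3, lies above the other libraries for most fibrillar and FACIT chains (Col3a1 at 548 CPM against 100 to 203), and not for Col4a1 or Col4a2.

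By FPKM the most abundant collagens in sham were the basement membrane chains Col4a2 (110 ± 31.7) and Col4a1 (78.4 ± 23.8), then the type VI chains Col6a1 (39.2 ± 8.95) and Col6a2 (21.3 ± 5.46), Col1a1 (21.2 ± 3.3), Col15a1 (18.9 ± 7.53) and Col3a1 (15.4 ± 5.06; FPKM, SD, n = 3). Neighbours from Col6a2 to Col3a1 differed by less than their SDs. This order also depends on the length that FPKM divides by, which followed all annotated exonic bases. These exceeded the longest transcript by far for Col3a1 (9816 and 5564 bases), Col6a2 (8326 and 4912) and Col1a2 (12426 and 5348; 10.4 FPKM in sham). They exceeded it less for Col1a1 (6563 and 5930), so the order could differ with transcript lengths. Summed over all 40 genes, collagen FPKM was 422, 376 and 238 in sham replicates 1 to 3 and 281, 294 and 449 in TAC replicates 1 to 3. The groups overlapped, with means of 345 ± 95.7 and 341 ± 93.5.

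The make-up of that sum was alike in 5 libraries and differed in the sixth. Col4a1 and Col4a2 together made up 55.2%, 54.8% and 53.3% of collagen FPKM in sham libraries and 55.2%, 57.7% and 35.1% in TAC libraries. Fibrillar chains made up 18%, 17.8% and 19.0% in sham libraries and 19.6%, 19.3% and 37.7% in TAC libraries. The size of these shares depends on the lengths behind FPKM, which were the same in all libraries. Exonic bases and longest transcript were closer for Col4a1 (7464 and 6615) and Col4a2 (6619 and 6450) than for Col1a2 and Col3a1. Sham replicate 3 had a low total but the usual shares, whereas TAC replicate 3 had a high fibrillar share. In whole tissue, fewer cells of a type and less RNA per cell cannot be told apart.

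**Figure D2:**
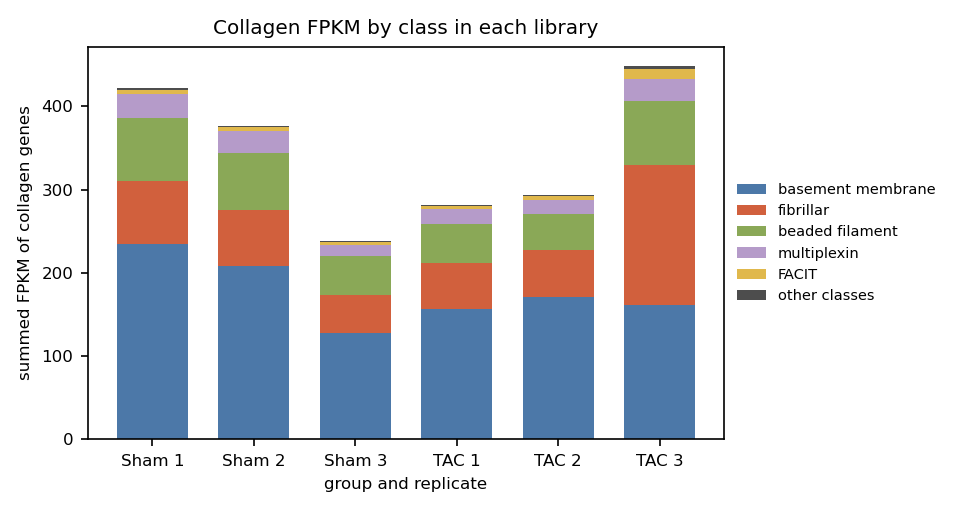
Summed FPKM of the collagen genes in each library, stacked by structural type. Fibrillar chains reach 169 FPKM in TAC replicate 3 and lie between 45.2 and 75.8 in the other libraries, while basement membrane chains in TAC replicate 3 (161) lie within the range of the other libraries (128 to 235).

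Among fibrillar collagens 6 of 10 were tested and 0 called, with a median log2 fold change of 0.79. Type I collagen is built from the chains of Col1a1 and Col1a2. Col1a1 (chromosome 11, 94936224 to 94953042 in GRCm38) measured 158, 148 and 117 CPM in sham and 166, 166 and 371 CPM in TAC. In TMM-scaled CPM all TAC libraries lay above all sham libraries, narrowly for TAC replicates 1 and 2, and Col1a1 was the 1 tested collagen with separate groups in that direction, against 17.7% of all tested genes. In FPKM the groups overlapped (23.3, 22.9 and 17.4 in sham, 21.6, 21.5 and 55.0 in TAC). Its log2 fold change was 0.73 ± 0.31 (SE; edgeR adjusted p = 0.173), and 0.23 without TAC replicate 3.

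Col1a2 measured 163, 126 and 103 CPM in sham and 151, 144 and 409 CPM in TAC. TAC replicate 3 was high and the other TAC libraries lay inside the sham range. The log2 fold change was 0.85 ± 0.40 (edgeR adjusted p = 0.206), and 0.18 without TAC replicate 3. Col3a1, which makes type III collagen of the finer, more extensible fibres, measured 203, 155 and 100 CPM in sham and 139.5, 153 and 548 CPM in TAC. TAC replicate 3 held 3.75 times the mean of the other TAC libraries, and these lay inside the sham range. The log2 fold change of Col3a1 was 0.87 ± 0.52 (edgeR adjusted p = 0.310), and -0.06 without TAC replicate 3.

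Type V collagen sets fibril diameter, and its 3 chain genes differed among themselves. Col5a2 measured 24.1, 17.6 and 12.5 CPM in sham and 22.9, 27.3 and 84.5 CPM in TAC, with TAC replicate 1 inside the sham range. It had the largest fold change among the 16 tested collagens (log2 1.31 ± 0.49; edgeR adjusted p = 0.124), and 0.47 without TAC replicate 3. Col5a1 measured 90.7, 81.8 and 48.0 CPM in sham and 61.3, 61.8 and 129 CPM in TAC (log2 fold change 0.19 ± 0.34, adjusted p = 0.755). Its groups overlapped, and it was -0.26 with TAC replicate 3 left out.

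Col5a3, a minor type V chain, measured 46.4, 37.1 and 18.4 CPM in sham and 21.1, 25.3 and 28.7 CPM in TAC. It was the only fibrillar chain tested with a negative fold change (log2 -0.44 ± 0.31; edgeR adjusted p = 0.393) and the only one of the 6 for which TAC replicate 3 was not the highest library. The remaining fibrillar chains lay under the filter. Col11a2, a type XI chain best known from cartilage, measured 1.94, 2.0 and 0.961 CPM in sham and 1.03, 0.854 and 0.982 CPM in TAC (log2 -0.87, edgeR adjusted p = 0.161 with the lower filter). Col27a1 ran from 0.142 to 0.205 FPKM over the 6 libraries (log2 0.13 ± 0.25), Col11a1 from 0 to 0.0293, and Col24a1 was listed at 0 in 5 libraries, with 4 estimated counts in TAC replicate 3.

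**Figure D3:**
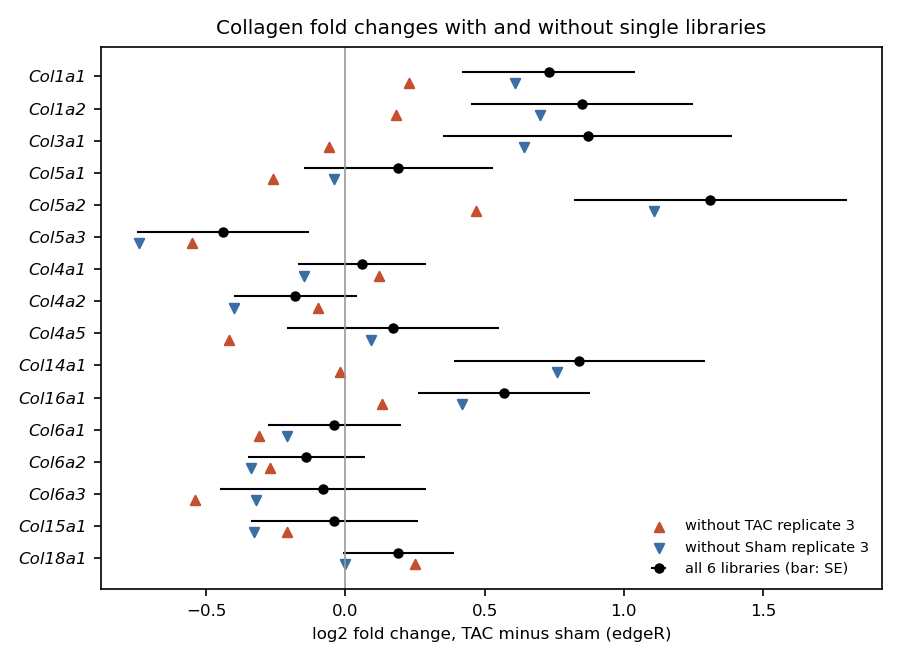
Log2 fold change, TAC minus sham, of the 16 tested collagens from edgeR, with all 6 libraries (black, bar: SE), without TAC replicate 3 (red) and without sham replicate 3 (blue). Col3a1 moves from 0.87 to -0.06 and Col5a2 from 1.31 to 0.47 when TAC replicate 3 is left out.

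Of the 6 basement membrane chains 3 were tested and 0 called (median log2 fold change 0.06). Col4a1 and Col4a2 encode the chains of the common type IV molecule. They lie head to head on chromosome 8, and their annotated start sites, at 11312826 for Col4a1 and 11312805 for Col4a2 in GRCm38, overlap by 22 bases. Col4a1 measured 771, 605 and 404 CPM in sham and 601, 691 and 562 CPM in TAC (log2 0.06 ± 0.23, edgeR adjusted p = 0.897). Col4a2 measured 909, 805 and 501 CPM in sham and 672.5, 702.5 and 573 CPM in TAC (log2 -0.18 ± 0.22, edgeR adjusted p = 0.637). For both genes the TAC libraries lay inside the sham range, and sham replicate 3 was the lowest of all. Either sign turned under another scaling, Col4a1 to -0.07 with library totals in place of TMM and Col4a2 to 0.09 with GC and length trends removed.

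Col4a5, a chain of the specialised type IV network best known from kidney, measured 10.4, 6.49 and 7.10 CPM in sham and 5.65, 6.33 and 14.9 CPM in TAC. Again TAC replicate 3 was high and the groups overlapped (log2 0.17 ± 0.38, edgeR adjusted p = 0.817). Under the filter, Col4a4 ran from 0.307 to 0.756 FPKM and Col4a6 from 0.0461 to 0.367 FPKM, each highest in TAC replicate 3 (lower-filter log2 fold changes 0.04 ± 0.31 and 0.04 ± 0.56, and -0.22 and -0.82 without that library). Col4a3 had 23 to 118 estimated counts per library.

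Type VIII collagen is a short-chain, network-forming collagen of vessel walls and of the cornea, built from the chains of Col8a1 and Col8a2. Both lay under the main filter, and both had all TAC libraries above all sham libraries. Col8a1 (chromosome 16, 57624258 to 57754737, minus strand) had estimated counts of 137, 94 and 109 (sham) and 306, 383 and 1007 (TAC). These were 2.0, 1.34 and 1.66 CPM in sham and 5.33, 6.06 and 14.1 CPM in TAC. Every TAC library was well clear of the sham range, and TAC replicate 3 was the highest. Col8a1 rose by 2.24 ± 0.37 on the log2 scale (edgeR adjusted p = 0.0250 with the lower filter). Its sham FPKM, 0.171 to 0.244, was above that filter without the TAC libraries. With TAC replicate 3 left out it was 1.70 and the call held (edgeR adjusted p = 0.00732). The call was lost without sham replicate 2 (edgeR adjusted p = 0.135) and without sham replicate 3 (edgeR adjusted p = 0.0834), with log2 fold changes of 2.12 and 2.24. It was also lost with library totals in place of TMM (edgeR adjusted p = 0.0515) and in limma on log2(FPKM + 0.1) (adjusted p = 0.0623), and over all its alternatives the adjusted p ran from 3.43e-07 to 0.135.

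Col8a2 (chromosome 4, 126286793 to 126314330, plus strand) measured 0.905, 0.913 and 1.13 CPM in sham and 1.46, 1.42 and 7.35 CPM in TAC. TAC replicate 3 held 5.09 times the mean of the other TAC libraries, which lay just above sham. Its log2 fold change of 1.68 ± 0.60 did not pass (edgeR adjusted p = 0.117 with the lower filter), although DESeq2 called it (adjusted p = 0.0254), and without TAC replicate 3 it was 0.48.

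The upstream sequences of both type VIII chains are shown because Col8a1 was called, and those of the fibrillar chains Col1a2 and Col3a1, whose groups overlapped, for comparison. The RefSeq table for GRCm38.p6 held a promoter for 32 of the 40 collagens. Each run is the 250 bases before the RefSeq start, 5′ to 3′ on the gene's strand, and capitals mark CAGACA or its reverse complement TGTCTG, the letters of a SMAD-binding element, which transcription factors of the TGF-beta pathway recognise. They lie at chr16:57754738-57754987 (minus strand) for Col8a1, chr4:126286544-126286793 (plus strand) for Col8a2, chr6:4505368-4505617 (plus strand) for Col1a2 and chr1:45311288-45311537 (plus strand) for Col3a1.
Col8a1: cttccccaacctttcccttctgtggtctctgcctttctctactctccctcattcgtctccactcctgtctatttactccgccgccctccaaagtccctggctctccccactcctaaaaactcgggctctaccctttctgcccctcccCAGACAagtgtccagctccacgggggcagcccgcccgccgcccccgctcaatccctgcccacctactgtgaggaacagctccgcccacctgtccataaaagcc
Col8a2: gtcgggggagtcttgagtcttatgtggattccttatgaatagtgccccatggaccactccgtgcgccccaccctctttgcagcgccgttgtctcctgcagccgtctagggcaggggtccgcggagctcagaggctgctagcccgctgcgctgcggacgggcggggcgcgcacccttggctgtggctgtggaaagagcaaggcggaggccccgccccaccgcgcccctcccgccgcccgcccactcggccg
Col1a2: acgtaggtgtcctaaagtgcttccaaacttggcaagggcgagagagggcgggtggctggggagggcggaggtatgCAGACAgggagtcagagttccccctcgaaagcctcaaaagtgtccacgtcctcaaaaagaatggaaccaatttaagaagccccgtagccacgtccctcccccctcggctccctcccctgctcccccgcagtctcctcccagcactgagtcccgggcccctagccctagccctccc
Col3a1: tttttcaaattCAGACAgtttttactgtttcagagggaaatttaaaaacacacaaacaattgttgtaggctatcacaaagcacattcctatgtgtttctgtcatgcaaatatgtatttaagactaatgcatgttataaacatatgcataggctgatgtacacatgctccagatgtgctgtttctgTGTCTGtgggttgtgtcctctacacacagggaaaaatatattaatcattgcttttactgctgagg
The letters occurred 1 time before Col8a1, 1 time before Col1a2 and 2 times before Col3a1, and did not occur in the window before Col8a2. Searched on both strands, they were in 9 of the 32 collagen genes with a promoter (Col18a1, Col1a2, Col20a1, Col28a1, Col3a1, Col5a1, Col7a1, Col8a1 and Col9a2) and in 17.1% of all 32851 promoters. The Sp1 box GGGCGG, on either strand, was in 21 of the 32 collagen genes and 32.7% of all promoters. The CCAAT box, CCAAT on either strand, was in 12 of 32 and in 33.8% of all promoters. TATAAA was in 4 of 32, among them Col3a1, and in 12.4% of all promoters. The TEAD letters GGAATG were in 4 of 32 and in 12.6% of all. A collagen gene was counted when any of its listed promoters held the letters, whereas the shares of all promoters count each promoter singly. These are unlike units, and a gene with several promoters has more chances of a match. The 4 promoters and the motif in capitals were chosen after values and sequences had been seen, and a match describes letters only.

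**Figure D4:**
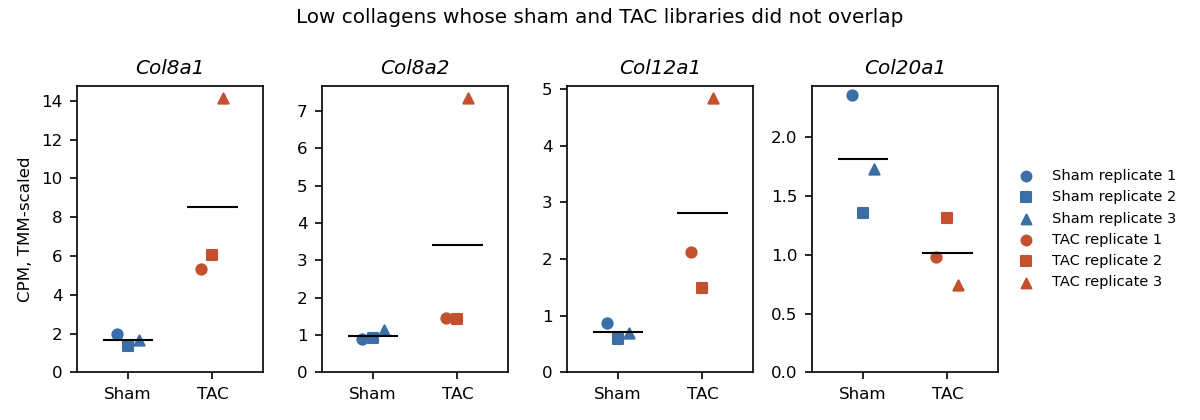
CPM (TMM-scaled) of the 4 weakly expressed collagens that have a lower-filter fold change and separate sham and TAC libraries; each point is 1 library and the line is the group mean. Col8a1, Col8a2 and Col12a1 are higher in TAC, with TAC replicate 3 on top, and Col20a1 is lower.

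FACIT collagens attach to the surface of fibrils. Of 7 members 2 were tested and 0 called (median log2 fold change 0.70), and 6 were above the lower filter. Col14a1 measured 15.1, 14.9 and 12.4 CPM in sham and 13.7, 14.3 and 48.0 CPM in TAC, so that TAC replicates 1 and 2 lay inside the sham range and TAC replicate 3 held 3.43 times their mean (log2 0.84 ± 0.45, edgeR adjusted p = 0.266). Col14a1 was at -0.02 with TAC replicate 3 left out. Col16a1 measured 14.1, 14.4 and 9.96 CPM in sham and 12.8, 15.2 and 28.9 CPM in TAC (log2 0.57 ± 0.31, edgeR adjusted p = 0.271, and 0.13 without TAC replicate 3), and its groups overlapped as well.

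Col12a1, a FACIT chain of dense tissue under tension, differed in all TAC libraries. It had estimated counts of 60, 41 and 46 (sham) and 122, 94 and 345 (TAC), or 0.876, 0.585 and 0.702 CPM and 2.13, 1.49 and 4.84 CPM. Col12a1 rose by 1.86 ± 0.44 on the log2 scale (edgeR adjusted p = 0.0486 with the lower filter). The margin was small: leaving out any 1 of the 6 libraries ended the call (edgeR adjusted p between 0.0584 and 0.192), and so did dropping the filter (edgeR adjusted p = 0.0688), library totals in place of TMM (0.0791), the replicate block (0.0710) and limma (0.212). The call held with DESeq2 (adjusted p = 0.00153), with GC and length trends removed (edgeR adjusted p = 0.0357) and with DESeq2 size factors in edgeR (0.0474). The sham FPKM of Col12a1, 0.0390 to 0.0550, was under the lower filter, which it passed through its TAC values. With TAC replicate 3 left out the log2 fold change was 1.25.

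Col20a1, a little-studied FACIT chain, had estimated counts of 161, 95 and 113 (sham) and 56, 83 and 53 (TAC). It measured 2.35, 1.36 and 1.72 CPM in sham and 0.976, 1.31 and 0.743 CPM in TAC, with all TAC libraries below all sham libraries. It was the 1 collagen of 30 with that pattern, beside 11.8% of all genes above the lower filter, and 4 of 30 had the opposite one, beside 21.4%. Among the 30, Col12a1 and Col9a2 (mean sham FPKM 0.0458 and 0.0832) passed that filter only through their TAC values. Col12a1 is also among the 4. Col26a1 (mean TAC FPKM 0.0790) passed only through its sham values. The log2 fold change of Col20a1, -0.93 ± 0.35, did not pass (edgeR adjusted p = 0.134 with the lower filter). Col9a2 had estimated counts of 31, 24 and 0 (sham) and 25, 61 and 145 (TAC) (log2 2.0 ± 0.95, edgeR adjusted p = 0.213 with the lower filter), Col22a1 ran from 29 to 119 (log2 0.31 ± 0.48) and Col9a3 from 0 to 20. In each of these 3 the groups overlapped.

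Type VI collagen makes beaded filaments that link the basement membrane to the interstitial matrix. Of the 7 beaded filament chains 3 were tested and 0 called (median log2 -0.08). Col6a1 measured 212, 179 and 131 CPM in sham and 149, 133 and 224 CPM in TAC (log2 -0.04 ± 0.24, edgeR adjusted p = 0.927). Col6a2 measured 208, 203 and 128 CPM in sham and 148, 150 and 190 CPM in TAC (log2 -0.14 ± 0.21, edgeR adjusted p = 0.705). Col6a3 measured 47.2, 32.7 and 21.2 CPM in sham and 24.2, 22.1 and 49.4 CPM in TAC (log2 -0.08 ± 0.37, edgeR adjusted p = 0.913). In all 3 genes the highest TAC library was replicate 3 and the lowest sham library was replicate 3, and TAC replicates 1 and 2 lay near that low sham library. With GC and length trends removed all 3 fold changes were above 0 (0.20, 0.09 and 0.05).

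Under the filter, Col6a6 measured 7.69, 4.77 and 5.48 CPM in sham and 3.47, 2.18 and 6.65 CPM in TAC. TAC replicates 1 and 2 lay below every sham library and TAC replicate 3 did not. Its log2 fold change of -0.65 ± 0.37 did not pass (edgeR adjusted p = 0.290 with the lower filter), and without TAC replicate 3 it was -1.16 (edgeR adjusted p = 0.0323). Col28a1 had 0 to 13 estimated counts per library, Col6a5 0 to 18 and Col6a4 4 counts in TAC replicate 2 and 0 elsewhere.

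The multiplexins Col15a1 and Col18a1 encode collagens of the basement membrane zone, and the tail of the type XVIII chain is cut off as endostatin. Col15a1 measured 162, 135 and 67.4 CPM in sham and 108, 103 and 143 CPM in TAC, all TAC libraries inside the sham range (log2 -0.04 ± 0.30, edgeR adjusted p = 0.945, and 0.20 with GC and length trends removed). Col18a1 measured 29.9, 28.4 and 18.6 CPM in sham and 30.3, 30.6 and 26.5 CPM in TAC (log2 0.19 ± 0.20, edgeR adjusted p = 0.588). For both the low sham library was replicate 3. The remaining members were weak. The transmembrane chains Col23a1 and Col13a1 ran from 0.268 to 0.553 and from 0.183 to 0.288 FPKM (log2 -0.01 ± 0.32 and 0.12 ± 0.34; the sign of Col23a1 turned with trends removed, to 0.30). Col26a1 ran from 0.0339 to 0.213 FPKM (log2 -0.93 ± 0.71, edgeR adjusted p = 0.433), and the skin anchoring fibril chain Col7a1 from 0.0133 to 0.0701. Col17a1 and Col25a1 were listed at 0 in 4 and 3 libraries. Every one of the 40 collagens had at least 1 estimated count in at least 1 library.

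Chains were compared within each library as ratios of FPKM, for 7 pairs. The chains of a pair belong to the same collagen type, except Col1a1 (type I) and Col3a1 (type III). The log2 ratio was put to an exact two-sided permutation test, which cannot go below p = 0.1 with 3 against 3. The Col1a1 to Col1a2 ratio was 1.84, 2.23 and 2.15 in sham and 2.08, 2.18 and 1.72 in TAC (exact permutation p = 0.600). The level of this ratio depends on the length that FPKM divides by. For these genes that length followed all annotated exonic bases (6563 for Col1a1 and 12426 for Col1a2), not the longest transcripts (5930 and 5348). In CPM the chains were closer, at 158 and 163 CPM in sham replicate 1 and 371 and 409 CPM in TAC replicate 3. The level of the ratio is therefore not read as the composition of type I collagen. The Col1a1 to Col3a1 ratio was 1.17, 1.43 and 1.75 in sham and 1.78, 1.62 and 1.01 in TAC, lowest in TAC replicate 3 (exact permutation p = 1).

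In 2 pairs the ratios of sham and TAC did not overlap. Col5a1 to Col5a2 was 4.22, 5.21 and 4.30 in sham and 3.01, 2.54 and 1.71 in TAC, a log2 difference of -0.95, so that Col5a2 had a larger share in every TAC library. Col4a1 to Col4a2 was 0.752, 0.666 and 0.714 in sham and 0.792, 0.872 and 0.869 in TAC, a log2 difference of 0.25. Both gave the smallest exact permutation p possible, 0.1, and 0.350 adjusted over the 7 pairs. The chain that gained share was the one with fewer G and C in both pairs (49.6% in Col5a2 against 58.0% in Col5a1, 57.7% in Col4a1 against 60.6% in Col4a2). With each library's GC and length trend removed, the differences between the chains' fitted log2 fold changes were -0.82 and 0.23. Fitted changes are another measure than the FPKM ratio. Before trend removal they were 0.19 for Col5a1 and 1.31 for Col5a2, and 0.06 for Col4a1 and -0.18 for Col4a2. The ratio of Col8a1 to Col8a2 was 1.25, 0.835 and 0.832 in sham and 2.09, 2.45 and 1.10 in TAC (exact permutation p = 0.200). The log2 difference of the Col8a1 to Col8a2 ratio was 0.90, and 0.01 between the fitted changes with the trend removed, which is not the same measure. The lower-filter fitted changes of Col8a1 and Col8a2 were 2.24 and 1.68 before trend removal and 2.03 and 2.02 after it. The type VI ratios overlapped (Col6a1 to Col6a2, exact permutation p = 0.800; Col6a3 to Col6a1, exact permutation p = 0.800).

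**Figure D5:**
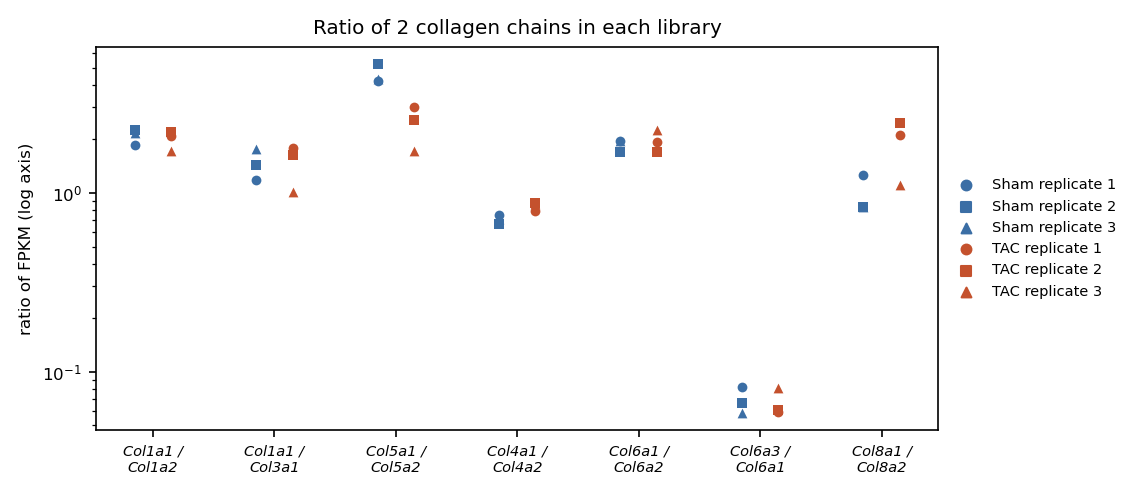
Ratio of FPKM between 2 collagen chains (log axis) in each library, sham in blue and TAC in red, for 7 pairs. Col5a1 to Col5a2 is lower in every TAC library (1.71 to 3.01) than in every sham library (4.22 to 5.21), and Col1a1 to Col1a2 lies between 1.72 and 2.23 throughout.

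Other genes of collagen making and turnover were taken from 6 lists of 70 genes, of which 50 were tested; 8 rose, 2 fell and 40 did not pass, beside 4.71% of all tested genes called higher and 2.29% called lower. With each library's GC and length trend removed 9 were called (5.09% of all genes), of which 5 were the same: Bgn, Itgb1, P3h4, Postn and Timp1. There 5 lost the call, P4ha1 (adjusted p = 0.0663), Fkbp10 (0.128), Dcn (0.0917), Lum (0.0976) and Ctsl (0.113), and 4 gained it, Adamts2, Loxl1, Mrc2 and Tgm2. DESeq2 called 15, the 10 among them, beside 18.7% of all tested genes. Of the called genes, Postn (mean 1.80 CPM in sham and 33.3 CPM in TAC) reached the filter only through its TAC values. Its calls are therefore no independent addition to these counts. Among 17 tested enzymes and chaperones that modify and fold collagen, P4ha1, a catalytic subunit of prolyl 4-hydroxylase, rose (log2 1.10 ± 0.21, edgeR adjusted p = 0.0297). It measured 23.0, 16.6 and 20.1 CPM in sham and 42.7, 52.9 and 32.4 CPM in TAC, where TAC replicate 3 was the lowest TAC library. Of the same list P3h4, a partner of lysyl hydroxylase, fell from 42.9 ± 1.98 to 25.4 ± 1.58 CPM (SD, n = 3 each; log2 -0.76 ± 0.13). Fkbp10, a prolyl isomerase of the endoplasmic reticulum, fell from 55.9 ± 6.46 to 33.6 ± 6.28 CPM (log2 -0.73 ± 0.17).

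Of 4 procollagen-processing genes and 4 cross-linking genes tested, 0 were called by edgeR with TMM alone. With the trends removed the procollagen N-proteinase Adamts2 (log2 0.84, edgeR adjusted p = 0.0404), Loxl1 (0.90, 0.0374) and Tgm2 (0.66, 0.0413) were called, and DESeq2 called Loxl1 (adjusted p = 0.0262). The most abundant of these were Pcolce, the enhancer of procollagen C-proteinase (log2 0.29 ± 0.16, edgeR adjusted p = 0.276), Bmp1, that proteinase (0.07 ± 0.17, adjusted p = 0.838), the transglutaminase Tgm2 (0.41 ± 0.16, adjusted p = 0.133) and the lysyl oxidase Loxl1 (0.61 ± 0.19, adjusted p = 0.0815). Of 12 tested fibril regulators 4 rose: the small proteoglycans Bgn, Dcn (log2 1.31 ± 0.27) and Lum (1.55 ± 0.35) and the matricellular Postn (4.20 ± 0.72). Postn is among the 4 only because its TAC values carried it over the filter. Bgn, biglycan, measured 443, 428 and 411 CPM in sham and 777, 703.5 and 945 CPM in TAC (log2 0.92 ± 0.15, edgeR adjusted p = 0.0243), clear of sham in TAC replicates 1 and 2 as well. Of 4 receptors tested Itgb1, the common beta chain of collagen-binding integrins, rose (log2 0.98 ± 0.22). Of 9 tested degradation genes the inhibitor Timp1 (2.02 ± 0.24) and the cathepsin Ctsl (0.78 ± 0.17) rose. The total of 10 called genes was 14 without TAC replicate 3, 6, 0 and 1 without sham replicates 1, 2 and 3, and 2 and 6 without TAC replicates 1 and 2. Calls over all 8795 tested genes moved likewise, from 615 to 1705 without TAC replicate 3. They were 361, 12 and 51 without sham replicates 1, 2 and 3, and 51 and 133 without TAC replicates 1 and 2.

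Marker genes of the cells that could supply these RNAs were read in the same libraries. All 4 tested activated fibroblast markers, Postn of the regulator list among them, were called higher in TAC, beside 4.71% of all tested genes. Postn reached the filter only through its TAC values, so its call is no independent addition to that count. The endothelial, pericyte, smooth muscle, skeletal muscle and atrial lists each had 1 gene called higher (Tek, Rgs5, Cnn1, Acta1 and Nppa), and no marker in any list was called lower. The summed level of that 6-gene list was 22.4 to 28.7 CPM in sham and 91.5, 102 and 304 CPM in TAC, highest in TAC replicate 3. Of 7 fibroblast markers 2 rose, Dcn and Lum, and the sum, most of it Gsn, overlapped (2190 to 2320 CPM in sham, 2080 to 2200 in TAC). The fibroblast receptor Pdgfra measured 10.1, 5.95 and 6.53 CPM in sham and 10.4, 9.51 and 25.0 CPM in TAC. The sum of 7 endothelial markers was 775 to 890 CPM in sham and 1100, 1050 and 708 CPM in TAC, and that of 6 cardiomyocyte markers 48900 to 59300 CPM in sham and 47500, 49300 and 33100 CPM in TAC. Both sums were lowest in TAC replicate 3, and the largest part of the cardiomyocyte sum was Myh6 (16500 CPM there and 24000 to 34100 in the other libraries). Summed pericyte markers were 286 to 326 and 307 to 375 CPM, smooth muscle 316 to 411 and 247 to 426, and macrophage 215 to 251 and 194 to 257 CPM in sham and TAC. Schwann (4.94 to 11.8 CPM), epicardial (1.84 to 8.83) and chondrocyte-like (2.43 to 5.94) sums were low in all libraries. The atrial sum was 455 to 1130 CPM in sham and 1380 to 2600 in TAC, most of it Nppa. The other atrial markers did not rise with Nppa, and the 4 tested, Nppa among them, had a median log2 fold change of -1.16. Myl4 ran from 16.2 to 155 CPM in sham and from 6.75 to 80.4 CPM in TAC. Myl7 and Sln overlapped between the groups as well, and Bmp10 was at 0 in every TAC library and in sham replicate 3. The 3 skeletal muscle markers in the table summed to 5470 to 6240 CPM in sham and 6510 to 10200 CPM in TAC. No list had a marker at 0 in every library. The part of cell composition in the collagen values was not tested.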

How the data were processed

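The authors deposited FPKM and estimated counts per gene and library for 24602 genes, per the file headers. The submitters' processing notes name cutadapt 1.9, HISAT2 2.0.4, StringTie 1.3.4d and GRCm38; for the annotation release, strand setting and counting step the sources used here give nothing. The deposited estimated counts were whole numbers and equalled FPKM times a fixed length per gene and a library factor within 0.05 (log2) for 100% of 10066 genes with at least 100 counts, so they are estimates and not read tallies. Counting error understates their uncertainty. From them, TMM-scaled CPM and fold changes were computed with edgeR 4.0.16 (estimateDisp, glmQLFit, glmQLFTest) in R 4.3.3 on genes whose mean FPKM reached 1; limma 3.58.1 (on log2 values) and DESeq2 1.42.0 were alternatives. The SE is the fold change divided by the square root of F, an approximation. GC content and length came from the longest GENCODE M21 transcript (lowess span 0.3, 3 rounds, passed as offsets). All 40 collagens were in GENCODE M21, 34 with the table's coordinates, and at most 6.1% of a member's exonic bases lay in another record.

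Collagens, lists and named genes were chosen with earlier results of these data known. The naming rule gave values per library for tested collagens, and under the filter for the 2 highest of a class and those whose groups did not overlap. Lower-filter fold changes were computed for all 14 collagens between the 2 filters. In pathway lists the rule named called genes, or the 2 most abundant. In simulated counts (8795 genes), edgeR found 70% of the 2-fold changes and 98% of the 4-fold changes, and made 181 calls, 13 of them false. With the lower filter (15003 genes) it found 34% and 78%, with 12 false among 124 calls. Each gene was drawn independently and the changed genes were picked at random. The shares found therefore do not carry over to the collagens, whose levels deviated together in TAC replicate 3 and in sham replicate 3. No pair of libraries of a group held counts that agreed within counting noise (chi-square per degree of freedom 42.9 or more), so none was merged; this does not show that they came from separate mice.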

Additional observations from a re-analysis of the deposited data

How the results depend on the processing

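Of the 16 tested collagens 0 were called in the 6 fits that left out 1 library (0 in each) and 1 with DESeq2. Without a filter (40 collagens in the fit) 1 was called, Col8a1, and with the lower filter (30 collagens) 2 were, Col8a1 and Col12a1, with 0 of the 16 called in either fit. Library totals in place of TMM moved the median of all genes to -0.14. Directions of small, uncalled log2 fold changes turned as follows; the cause was not tested. Col4a1 (0.06) was -0.07 with library totals, -0.04 without a filter, -0.03 with the lower filter and -0.04 in limma with either pseudocount. With GC and length trends removed, Col4a2 was 0.09, Col6a1 0.20, Col6a2 0.09, Col6a3 0.05 and Col15a1 0.20, and with the replicate block as well 0.11, 0.19, 0.12, 0.07 and 0.27. Col4a5 was -0.01 and -0.08 in limma with pseudocounts of 1 and 0.1. With a filter of mean FPKM 2, Col6a1 was 0.00 and Col15a1 0.00, and with the replicate block alone Col15a1 was 0.02. Leaving out each library in turn gave ranges of -0.06 to 1.20 for Col3a1, -0.26 to 0.39 for Col5a1, -0.15 to 0.32 for Col4a1, -0.40 to 0.02 for Col4a2, -0.42 to 0.42 for Col4a5, -0.02 to 1.14 for Col14a1, -0.31 to 0.14 for Col6a1, -0.54 to 0.26 for Col6a3 and -0.33 to 0.24 for Col15a1. In the lower-filter fits they were -0.22 to 0.28 for Col4a4 (-0.21 without sham replicate 3), -0.82 to 0.47 for Col4a6, -0.03 to 0.98 for Col22a1, -0.09 to 0.30 for Col13a1 and -0.23 to 0.27 for Col23a1. There the block gave -0.28 for Col4a6 and 0.02 for Col23a1, limma -0.11 for Col4a6, and trend removal 0.30 for Col23a1. The same ranges for the log2 ratio of summed FPKM were -0.16 to 0.85 for fibrillar (0.58 with all libraries), -0.16 to 0.86 for types I, III and V (0.59), 1.08 to 2.34 for network (2.02), -0.14 to 0.88 for FACIT (0.59) and -0.58 to 0.73 for the anchoring fibril chain (0.40), the lowest without TAC replicate 3. For chain ratios they were -0.15 to 0.04 (Col1a1 to Col1a2), -0.16 to 0.25 (Col1a1 to Col3a1), -0.05 to 0.16 (Col6a1 to Col6a2) and -0.19 to 0.08 (Col6a3 to Col6a1). Calls over the 6 pathway lists numbered 3 with the replicate block and 0 to 14 with 1 library left out, against 10, and 9 with trends removed, 5 of them shared with the 10. The labels do not state whether the replicate numbers pair the libraries. Deviations of same-numbered libraries correlated at -0.086, 0.134 and -0.045, within the range over all sham and TAC combinations (-0.22 to 0.233). With 3 libraries per group this cannot decide pairing. The block lowered calls over all genes from 615 to 183, which cannot decide it either, since a block costs residual degrees of freedom in any case. Calls over all genes fell to 12 without sham replicate 2 and rose to 1705 without TAC replicate 3, and DESeq2 made 1648. They were 345 with library totals, 285 without a filter, 178 with trends removed and the block, 361 and 51 without sham replicates 1 and 3, and 51 and 133 without TAC replicates 1 and 2. The lower-filter fits with a second change were chosen after seeing the data, as was the trend-removed difference between chains. The 40 collagens include 24 under the filter, for which a few counts move a fold change.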
